A study of Mus musculus with 8 samples.

Results

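miR-204 and miR-211 are a pair of closely related microRNAs (miRNAs), and both arms of each hairpin, 4 of the 1966 mature names in the count table, were examined by name: mmu-miR-204-5p, mmu-miR-204-3p, mmu-miR-211-5p and mmu-miR-211-3p. They were measured by miRNA sequencing in primary articular chondrocytes, the resident cells of cartilage in joints. The cartilage was that of femoral heads, and the donors were wild-type mice aged 3 weeks. Cultures received vehicle (n = 4 libraries) or IL-1β, a proinflammatory cytokine, at 1 ng/ml for 24 h (n = 4 libraries), and no group carried a genetic change. The strain, the sex and the number of mice behind a culture are not given in the sources used here, so that p-values measure the spread between these libraries, which may be technical.

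A miRNA is processed from a hairpin precursor, whose strands are called the 5p and the 3p arm, and guides the silencing of mRNAs that pair with its seed, the bases near its 5′ end. miR-204 and miR-211 lie in introns of Trpm3 and Trpm1, which encode related cation channels, and miR-211 is best known from pigment cells. In bone and joint tissue the pair is known for repressing Runx2, a transcription factor that drives hypertrophy of chondrocytes and formation of bone, and loss of both miRNAs in mice leads to degeneration of the joint.

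The mature sequences are shown because the family is defined by them. All 4 were found in RefSeq (GRCm38.p6). They are written 5′ to 3′ with the seed, bases 2 to 8, in capitals.
mmu-miR-204-5p: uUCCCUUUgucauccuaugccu
mmu-miR-211-5p: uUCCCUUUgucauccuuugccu
mmu-miR-204-3p: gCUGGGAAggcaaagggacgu
mmu-miR-211-3p: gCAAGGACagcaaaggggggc
The 5p arms shared the seed and 21 of 22 bases, and the only substitution, from miR-204-5p to miR-211-5p and counted from the 5′ end, was A17U. The 3p arms shared 14 of 21 bases and had different seeds. Among the 1675 names with a RefSeq sequence, 1 other carried the 5p seed, miR-7670-3p, with 0 counts in all libraries. The seed of miR-204-3p was also carried by miR-7684-5p, with 1 count. No other name shared the seed of miR-211-3p.

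The hairpins show where each arm lies, with the mature arms in capitals.
Mir204: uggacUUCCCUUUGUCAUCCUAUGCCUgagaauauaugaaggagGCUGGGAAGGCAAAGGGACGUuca
Mir211: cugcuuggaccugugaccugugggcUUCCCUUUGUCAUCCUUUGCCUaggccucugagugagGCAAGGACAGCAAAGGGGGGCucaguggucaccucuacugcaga
Mir204 lies at chr19:22750605-22750672 (GRCm38, plus strand), in intron 6 of the longest protein-coding Trpm3 transcript of GENCODE M21 (intron chr19:22733172-22766633), and its 5p arm occupies chr19:22750610-22750631 and its 3p arm chr19:22750649-22750669. Mir211 lies at chr7:64205806-64205911 (plus strand), in intron 6 of the longest protein-coding Trpm1 transcript (intron chr7:64204594-64208275), with its 5p arm at chr7:64205831-64205852 and its 3p arm at chr7:64205868-64205888. Neither hairpin overlapped an annotated exon of its host gene. Each name has 1 locus in the RefSeq table. Because the 5p arms differ by a single base, reads of one could be assigned to the other, and how the counting treated such reads was not stated.

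The libraries held 616475 to 1568367 counts, so that 1 count was worth 0.638 to 1.62 CPM (counts scaled to the library total). The 3 counts that an observed 0 allows, the counting floor, were worth 1.91 to 4.87 CPM. Abundance per library is given below as normalized CPM, for which the library total was multiplied by a TMM factor, a correction for composition. One library stood apart. The chi-square per degree of freedom between pairs of libraries of a group was 54.0 to 81.6 for the 3 pairs with IL-1β replicate 4 and 4.67 to 16.3 for the other pairs, so the fold changes of the members are also given without it. No pair of libraries agreed within sampling noise.

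The chondrocyte markers were present. The 4 arms of miR-140 and miR-455, miRNAs typical of cartilage, together took 153547 to 168966 normalized CPM with vehicle and 132602 to 155815 with IL-1β. Lists of markers of other cells were scarce. Haematopoietic markers (6 names, with miR-142a-3p, miR-223-3p, miR-144-3p and miR-451a at 0) took 43.5 to 62.5 normalized CPM with vehicle and 25.6 to 45.5 with IL-1β, and 370 of their 374 counts were of miR-150-5p alone. Epithelial markers (7 names, with miR-200c-3p and miR-429-3p at 0) took 0 to 3.12 and 1.60 to 11.7 normalized CPM, and endothelial markers (2 names, with miR-126a-5p at 0) 0 to 1.87 and 0 to 2.92. Neural markers (5 names, with miR-124-3p, miR-9-3p and miR-219a-5p at 0) took 15.3 to 25.4 and 16.3 to 23.6 normalized CPM, and 162 of their 165 counts were of miR-128-3p. All 4 muscle markers were at 0, and a listed 0 carries the limit given below for miR-199a-3p. The part of these shifts in the values below was not tested. In such bulk cultures, fewer cells of a type and less miRNA per cell cannot be told apart.

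The main product of the family in chondrocytes was miR-204-5p. It was found in all 8 libraries at similar levels. The difference in means, IL-1β minus vehicle, was 16.3 normalized CPM. That was below the SD between IL-1β libraries (22.7) and above the SD between vehicle libraries (11.7). Without IL-1β replicate 4, the IL-1β mean was 216.7 and the SD 11.3, beside a vehicle mean of 210.8. With vehicle, replicates 1 to 4 held 189, 341, 333 and 133 counts of miR-204-5p, or 200.4, 227.6, 208.04 and 207.2 normalized CPM. With IL-1β, replicates 1 to 4 held 141, 242, 151 and 206 counts, or 225.5, 203.96, 220.6 and 258.2 normalized CPM. The groups overlapped in normalized CPM. IL-1β replicate 2 lay below 3 of the 4 vehicle libraries, and only IL-1β replicate 4 exceeded every vehicle library. Without the TMM factor, IL-1β replicate 1 (228.7 CPM) also exceeded the highest vehicle library, replicate 2 (225.2 CPM), and the groups still overlapped.

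Vehicle libraries averaged 210.8 ± 11.7 normalized CPM of miR-204-5p, and IL-1β libraries 227.1 ± 22.7 (SD, n = 4 each). In the fit across all 564 tested miRNAs its log2 fold change was 0.10 (SE 0.105, edgeR quasi-likelihood test, two-sided, Benjamini-Hochberg adjusted p = 0.777). The 95% interval of the log2 fold change ran from -0.12 to 0.32, that is, from 0.923-fold to 1.25-fold, so that larger changes in either direction lay outside it. An exact permutation test on normalized CPM gave a two-sided p of 0.314, where 4 against 4 libraries allow a p as low as 0.0286. Without IL-1β replicate 4 the log2 fold change was 0.03 (edgeR adjusted p = 0.964), and without vehicle replicate 4 it was 0.06 (0.884).

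**Figure D1:**
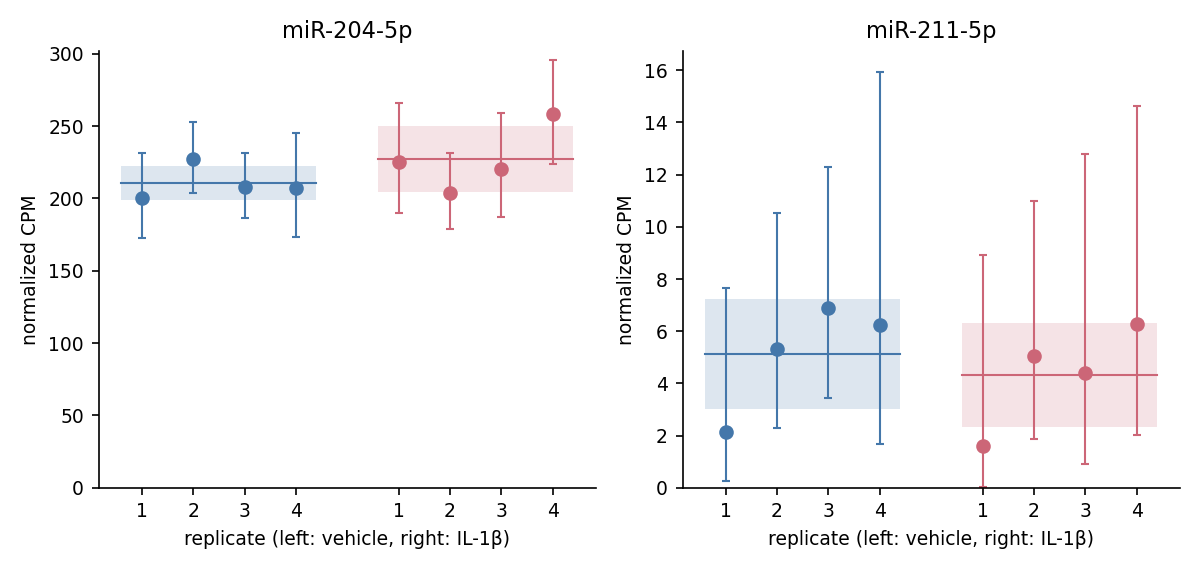
Normalized CPM (vertical axes, from 0) of miR-204-5p and miR-211-5p in each library (horizontal axes, replicates 1 to 4 of vehicle on the left and of IL-1β on the right). Points are libraries with exact Poisson 95% intervals for counting error, and lines and bands are the group mean and SD; the groups overlap in both panels.

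The spread of miR-204-5p was near its counting error. The coefficient of variation between libraries was 5.54% with vehicle and 9.995% with IL-1β, beside a counting error of 6.85% and 7.53% for numbers of this size. Without replicate 4 it was 5.22% with IL-1β, beside a counting error of 7.71%. Of 57 tested miRNAs whose mean count was within 2-fold of that of miR-204-5p, 18 had a smaller SE and the median SE was 0.112. Among these 57 miRNAs, 22 had a smaller absolute log2 fold change than miR-204-5p, and 5 were called (edgeR adjusted p under 0.05 and absolute log2 fold change over 0.3).

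miR-211-5p, the paralog with the same seed, had counts in all 8 libraries, which may include misassigned reads of miR-204-5p, and was near the floor. Its counts in vehicle replicates 1 to 4 were 2, 8, 11 and 4, or 2.12, 5.34, 6.87 and 6.23 normalized CPM. Its counts in the IL-1β libraries, in the same order, were 1, 6, 3 and 5, or 1.60, 5.06, 4.38 and 6.27 normalized CPM. Vehicle replicate 1 and IL-1β replicates 1 and 3 were at or under 3 counts, and the groups overlapped over most of their range.

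Vehicle libraries averaged 5.14 ± 2.11 normalized CPM of miR-211-5p, and IL-1β libraries 4.33 ± 1.98 (SD, n = 4 each). Its log2 fold change of -0.22 (SE 0.497) was not past the threshold (edgeR adjusted p = 0.922), and the 95% interval from -1.24 to 0.81 held both a fall to 0.422-fold and a rise to 1.75-fold. An exact permutation test gave a two-sided p of 0.543. Pooled over libraries, 25 counts with vehicle and 15 with IL-1β made a ratio of 0.841, with an exact 95% interval of 0.412 to 1.66 for counting error only. Changes within this interval were not detectable at this depth. The fold change depended on single libraries, being -0.0001 without vehicle replicate 3, -0.02 without IL-1β replicate 1, -0.34 without IL-1β replicate 2, -0.40 without IL-1β replicate 4 and -0.44 without vehicle replicate 1 (log2), with an edgeR adjusted p of 0.823 or more under every alternative that gave one.

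The 3p arms, the strands opposite the 5p miRNAs in the hairpins, were below the counting floor. miR-204-3p had 1 count each in vehicle replicates 2 and 3 and in IL-1β replicate 2, at 0.667, 0.625 and 0.843 normalized CPM, and 0 in the other 5 libraries. It exceeded 1 CPM in no library and was therefore not in the test. The difference in mean normalized CPM, IL-1β minus vehicle, was -0.11 (exact permutation test, two-sided p = 1). With 1 count in each of 3 libraries, no arrangement of them gives this test a p under 0.05, so it decides nothing. The difference was -0.32 without IL-1β replicate 2 and 0.00245, a reversal, without vehicle replicate 2. No fold is given because both groups were under 3 counts. With no filter on low counts, miR-204-3p was also not called (edgeR adjusted p = 0.941).

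miR-211-3p had 0 counts in all 8 libraries. The floor of 3 counts allowed up to 0.646 CPM over the pooled vehicle libraries and 0.905 CPM over the pooled IL-1β libraries. A listed 0 was not proof of absence in this table. miR-199a-3p and miR-199b-3p, singled out after their values were seen, were also listed at 0, whereas miR-199a-5p, from the same hairpins as miR-199a-3p, had 9740 counts.

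The balance between the arms was next described per hairpin. Of 1739 counts of miR-204, 3 were from the 3p arm, a share of 0.173% (Clopper-Pearson 95% interval 0.0356% to 0.503%, counting error only). The share of the 5p arm was 99.8% with vehicle (2 counts of 998 on the 3p arm) and 99.9% with IL-1β (1 of 741). For miR-211, 0 of 40 counts were on the 3p arm, which allows a share of up to 7.5%. Of 189 hairpins with at least 100 counts and both arms in the table, 58 (30.7%) were at least as one-sided as miR-204, and the median share of the more abundant arm was 98.3%. These include 32 hairpins with an arm listed at 0, among them miR-199a and miR-199b. Of the 157 with counts on both arms, 26 (16.6%) were at least as one-sided as miR-204. The test planned for the balance of the arms took only hairpins with both arms past the filter, which neither was, and it was not run without a filter.

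**Figure D2:**
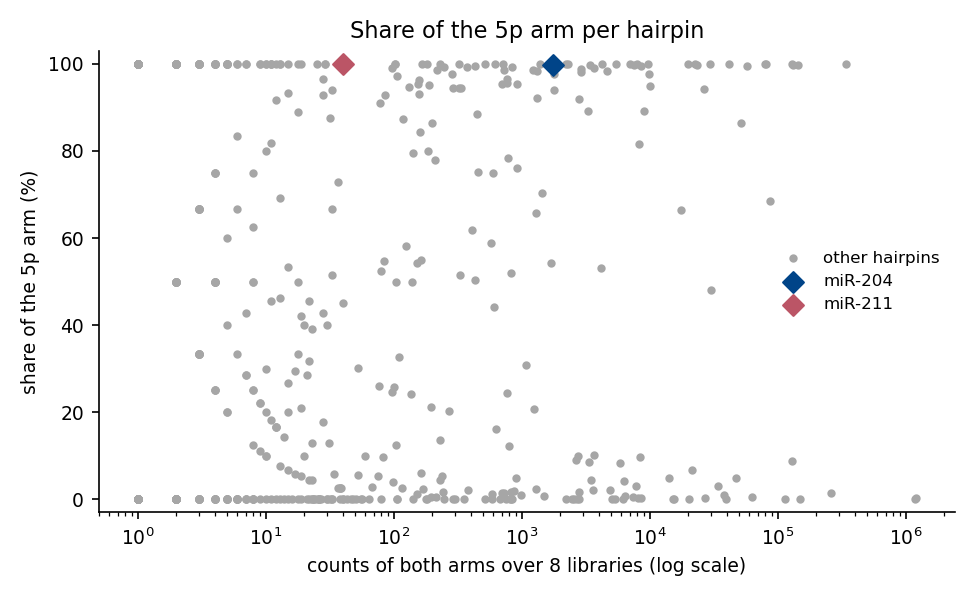
Share of the 5p arm in percent (vertical axis) against the counts of both arms summed over the 8 libraries (horizontal axis, log scale) for 533 hairpins with at least 1 count. Each point is a hairpin, and the diamonds mark miR-204 (99.8% of 1739 counts) and miR-211 (40 of 40 counts), both on the upper edge among many others.

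Because both 5p arms present the same seed to target mRNAs, their abundance was also summed. In normalized CPM, vehicle replicates 1 to 4 had sums of 202.5, 232.9, 214.9 and 213.4, and the IL-1β replicates in the same order had 227.1, 209.01, 225.03 and 264.4. The means were 215.9 ± 12.6 and 231.4 ± 23.5 (SD, n = 4), and the groups overlapped. No test was made of this sum. miR-211-5p contributed 40 of the 1776 counts, or 2.25% (Clopper-Pearson 95% interval 1.61% to 3.05%). The interval covers counting error only and not reads assigned to the wrong 5p arm. By these counts miR-204-5p outnumbered miR-211-5p 43.4 to 1. Both are 22 nt long, so the ratio is the same per nucleotide.

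The share of miR-211-5p in the sum was lowest in the libraries numbered 1, at 1.05% in vehicle replicate 1 and 0.704% in IL-1β replicate 1, and 1.95% to 3.20% in the other 6. Vehicle libraries averaged a share of 2.36% ± 0.956, and IL-1β libraries 1.86% ± 0.799 (SD, n = 4 each). The exact intervals of the single libraries overlapped, from 0.127% to 3.73% in vehicle replicate 1 and from 1.61% to 5.65% in vehicle replicate 3, the library with the highest share.

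By mean normalized CPM over the 8 libraries miR-204-5p ranked 118 and miR-211-5p ranked 372 of 1003 miRNAs with a count, and miR-204-3p ranked 744. miR-204-5p made up 0.0218% of all counts. Its neighbors in this order were miR-129-2-3p above (219.9 ± 64.6 normalized CPM, SD, n = 8) and miR-690 below (214.6 ± 36.1), beside 218.9 ± 18.8 for miR-204-5p. miR-129-2-3p was itself called (log2 fold change 0.79, edgeR adjusted p = 2.46e-05), with 145.6 to 173.5 normalized CPM with vehicle, below every vehicle library of miR-204-5p, and 254.3 to 302.5 with IL-1β. miR-690 overlapped miR-204-5p in both groups. It was not called with all libraries, but was without IL-1β replicate 4, at a log2 fold change of 0.39 (edgeR adjusted p = 0.0297). The neighbors of miR-211-5p (4.73 ± 1.94), miR-5617-3p (4.74 ± 1.72) and miR-1946a (4.66 ± 1.94), differed from it by less than the spread over libraries.

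The cartilage miRNAs served as a reference for these levels. Per nucleotide of the mature miRNA, miR-204-5p had 9.95 normalized CPM and miR-211-5p 0.215. miR-140-3p, level with miR-127-3p at the top of the table, had 7020 normalized CPM per nucleotide, miR-455-3p 220.4, miR-140-5p 13.3 and miR-455-5p 2.10. In level, then, miR-204-5p lay between the arms that are less abundant in miR-140 and in miR-455. Comparisons between different miRNAs are approximate, as ligation during library preparation favors some sequences.

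Of the 4 members 2 passed the filter (over 1 CPM in at least 4 libraries), and 0 of these 2 were called at an edgeR adjusted p under 0.05 and an absolute log2 fold change over 0.3, whereas 11 of all 564 miRNAs tested (1.95%) were. This background rested on single libraries, with 6 of 546 called without vehicle replicate 4 and 19 of 537 without IL-1β replicate 4, and 7 without vehicle replicate 2 or without IL-1β replicate 3. Neither had an unadjusted p under 0.05, and DESeq2 called neither, giving miR-211-5p no adjusted p because of its low counts. A count of 0 of 2 cannot be told from such a share. The median log2 fold change over all tested miRNAs was 0.01 and the median absolute log2 fold change was 0.218, above the value of miR-204-5p. Among the 57 tested miRNAs with a mean count within 2-fold of that of miR-204-5p, the median absolute log2 fold change was lower, 0.132.

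**Figure D3:**
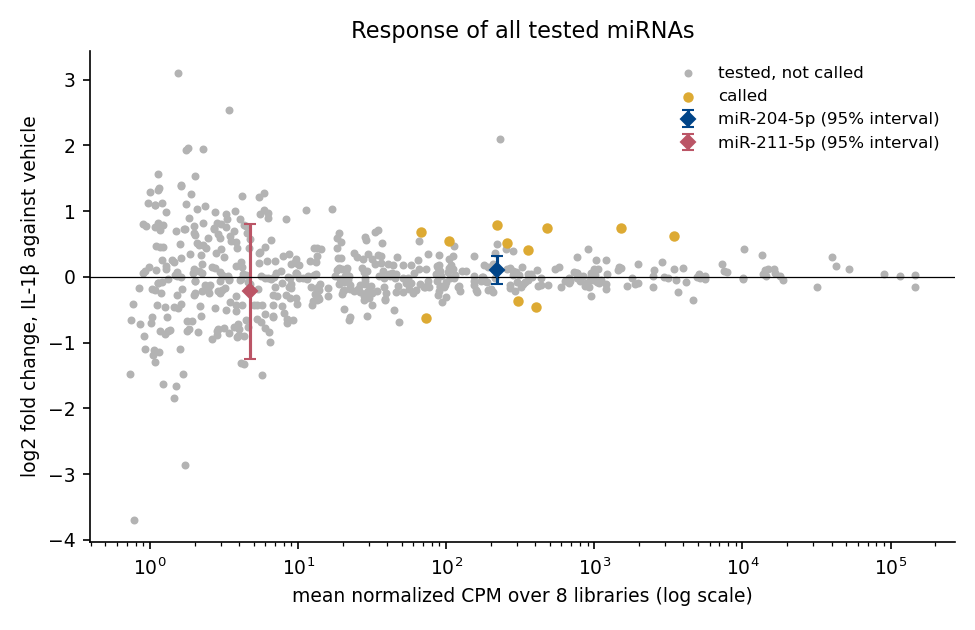
Log2 fold change, IL-1β against vehicle (vertical axis), against mean normalized CPM over 8 libraries (horizontal axis, log scale) for the 564 tested miRNAs, with the 11 called in yellow. The diamonds with 95% intervals are miR-204-5p (0.10) and miR-211-5p (-0.22), and both intervals include 0.

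A list of 36 miRNAs studied in cartilage and osteoarthritis was examined beside the family. Of its 32 tested members, 2 were called higher with IL-1β and 0 lower, beside 1.95% of all tested miRNAs called in either direction, and its median log2 fold change was 0.04. One was miR-21a-5p, a miRNA widely induced in inflammation, which rose by 0.75 on the log2 scale (edgeR adjusted p = 3.58e-05). The other was miR-222-3p, a regulator of cell growth, which rose by 0.62 (edgeR adjusted p = 2.46e-05). Without IL-1β replicate 4 both were still called, at 0.67 and 0.68. miR-146a-5p, a miRNA induced by inflammatory signaling and named here after its values were seen, had the largest log2 fold change of the list, 2.09, and was not called with all libraries (edgeR adjusted p = 0.184). It was called without IL-1β replicate 4, at 1.33 (edgeR adjusted p = 1.02e-08). miR-140-5p, miR-140-3p, miR-455-5p and miR-455-3p were not called, with log2 fold changes of -0.21, -0.15, -0.23 and -0.35, or -0.19, -0.11, -0.07 and -0.24 without that library.

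The miRNAs whose abundance followed miR-204-5p most closely over the 8 libraries were miR-151-3p, miR-125b-1-3p, miR-10b-5p, miR-191-5p and miR-181a-5p, out of 194 with a mean of at least 50 counts. Their Pearson correlations with miR-204-5p, on log2(normalized CPM + 1), were 0.917, 0.904, 0.877, 0.847 and 0.838, and their Spearman correlations 0.762, 0.810, 0.667, 0.571 and 0.5. The median Pearson correlation over the 194 was 0.124. All 5 had their highest value in IL-1β replicate 4, as did miR-204-5p. Without the 2 libraries farthest from the median of miR-204-5p (IL-1β replicate 4 and vehicle replicate 1), the 5 Pearson correlations were 0.662, 0.608, 0.414, 0.488 and 0.808. The points share library, depth and scaling, so these values are a description. None of the 5 was called with IL-1β (edgeR adjusted p from 0.196 to 0.886).

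The fold changes of both 5p arms under other processing are shown in the plot of settings. That of miR-204-5p stayed between 0.03 and 0.14 over 15 alternatives and that of miR-211-5p between -0.44 and -0.0001 over 14.

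**Figure D4:**
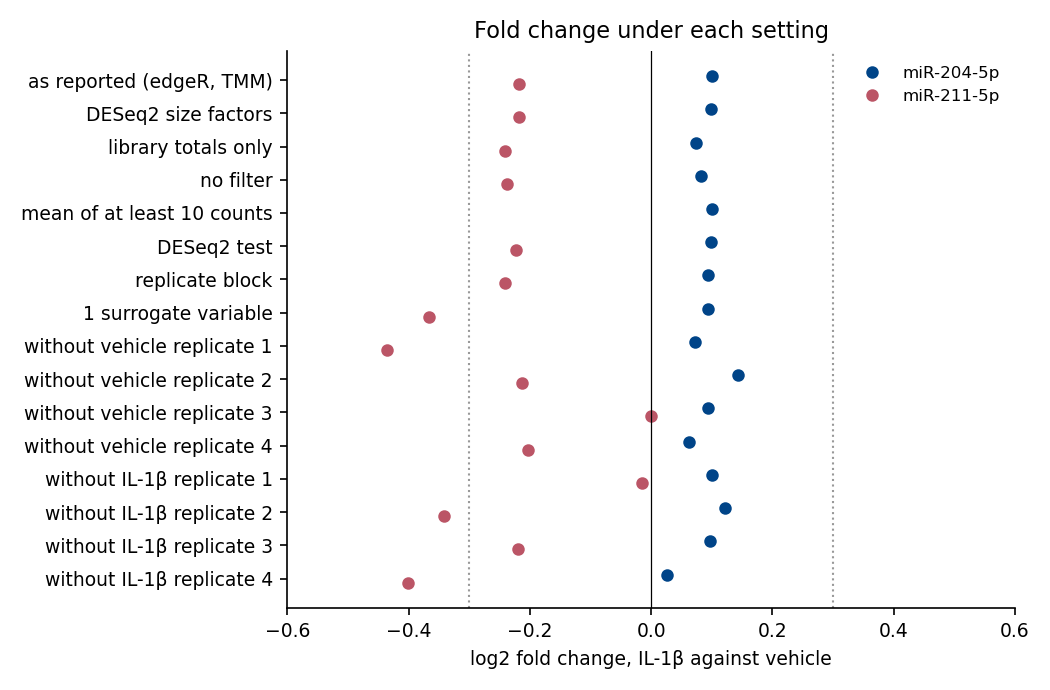
Log2 fold change, IL-1β against vehicle (horizontal axis), of miR-204-5p and miR-211-5p under each processing setting (vertical axis), with dotted lines at the 0.3 threshold on either side. All points of miR-204-5p lie between 0.03 and 0.14, whereas those of miR-211-5p range from -0.44 to almost 0.

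To show how the shared seed pairs with a target, the 3′ UTR of Runx2, a known target, was searched for AAAGGGA, the reverse complement of bases 2 to 8, on the strand of the mRNA only. The longest Runx2 3′ UTR in GENCODE M21 (Runx2-203, 3904 bases, minus strand of chromosome 17, GRCm38) held 2 matches, shown as DNA with the match in capitals.
Runx2 site 1: gtgcactcagAAAGGGAcaag
Runx2 site 2: tctgaacttcAAAGGGActat
Site 1 covers chr17:44607487-44607507, with the match at bases 408 to 414 of the 3′ UTR, and site 2 covers chr17:44604113-44604133, with the match at bases 3782 to 3788. The same 7 letters were in the longest 3′ UTR of 3135 of 20984 protein-coding genes (14.9%). Among 1542 3′ UTRs of at least 3904 bases, the first 3904 bases held at least 1 match in 37.4% and at least 2 in 137. A match is a description of the letters and not a measured site, and no mRNA was measured in these libraries.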

How the data were processed

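miRNA sequencing of 8 libraries was analysed. The authors trimmed reads with cutadapt, aligned them to the mouse genome (mm10) with STAR and counted them with featureCounts, and the deposited table holds raw counts per mature miRNA for 1966 names. The submitters' processing notes give STAR 2.4.2a, the methods another version. The methods name a GENCODE gene annotation and default STAR settings. The source of the mature miRNA names, and how counting treated strand and multi-mapping reads, are not given in the sources used here. The methods name an RUVseq correction, and whether it touched these columns is not stated. The columns hold whole numbers with unequal totals and were used as raw counts.

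Counts were tested with edgeR 4.0.16 (robust quasi-likelihood test, TMM, group as the only term) in R 4.3.3, for miRNAs over 1 CPM in at least 4 of 8 libraries, with Benjamini-Hochberg adjustment over all 564. SE is the absolute log2 fold change divided by the square root of F. The test was checked on simulated data with the same dispersion (spread between libraries) for every miRNA and no library set apart, unlike in these data. DESeq2 1.42.0 and sva 3.50.0 served alternatives. The study's threshold for miRNAs (absolute log2 fold change over 0.3 at an adjusted p under 0.05) was used. The members and lists were chosen with earlier results of these data known. Named were the members, names sharing their seed, the 5 miRNAs most alike in pattern, the called members of the cartilage list and the reference arms; others, such as neighbors in level, were named after their values were seen. Of 1966 names, 1675 had a RefSeq mature sequence (GRCm38.p6). Without molecular identifiers, intervals and floors cover counting error only.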

Additional observations from a re-analysis of the deposited data

Results flagged for a closer look

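In 10 groups of 4 libraries, 1 library lay far from the other 3. The groups covered the members, the summed 5p arms and the share of miR-211-5p, so they were not independent. A chance rate of 5% of groups holds for normally distributed values and not for counts this low. The library was IL-1β replicate 2 for miR-204-3p, at 0.843 normalized CPM against 0 in the other 3 IL-1β libraries, a value made of 1 count and under the floor. Any single count beside 0 in the other 3 libraries would be flagged.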

How the results depend on the processing

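No alternative called miR-204-5p (15 alternatives, adjusted p 0.653 to 0.964) or miR-211-5p (14 alternatives; DESeq2 gave it no adjusted p), and the direction of both was the same in each. Leaving out 1 library at a time gave log2 fold changes of 0.03 to 0.14 for miR-204-5p and -0.44 to -0.0001 for miR-211-5p, and differences of -0.32 to 0.00245 normalized CPM for miR-204-3p, which reversed without vehicle replicate 2 (0.00245). The number of miRNAs called in all was 11, with 6 to 19 when 1 library was left out (7 without vehicle replicate 2, 6 without vehicle replicate 4, 7 without IL-1β replicate 3, 19 without IL-1β replicate 4) and 18 with 1 surrogate variable in the model. The cause was not tested. With the replicate number as a block (replicate block) it was 19, and the log2 fold changes of miR-204-5p and miR-211-5p were 0.09 and -0.24. Deviations of same-numbered libraries correlated at 0.171, -0.345, 0.101 and -0.183 across 195 miRNAs, and 3 of 8 libraries correlated best with their own number, so the numbers were not taken to pair samples. miR-211-5p was not in the test that required a mean of 10 counts, miR-204-3p was in the edgeR test only with no filter, miR-211-3p had no counts, and the arm balance, planned for hairpins with both arms past a filter, was not run under any setting. Depth limits what can be said of miR-211-5p and of both 3p arms.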
